A study of Mus musculus with 6 samples.

Results

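Circadian clock genes were examined as a set of 10, Per1, Per2, Per3, Cry1, Dbp, Tef, Arntl, Clock, Nr1d1 and Nr1d2, in single cells of mouse aortic tissue. They were taken by symbol, and all 10 were found among the 55450 genes of the count matrix. Cells were captured in droplets, and each transcript copy was counted once through its unique molecular identifier (UMI). Of the 6 samples, 3 carried the genotype Best3FL/FL, a floxed allele of the gene for bestrophin 3 (a member of a chloride channel family), and 3 carried the genotype Best3SMKO. The sources used here do not give the Cre driver, the age and sex of the mice, the number of mice per sample or the hour of tissue collection. The matrix joins 6 libraries that are told apart by a suffix on the cell barcode, and no suffix matches a sample label. The libraries are therefore numbered 1 to 6 after their suffix, none was placed in a genotype, and no test between genotypes was made.

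The mammalian clock is a feedback loop of transcription. The CLOCK protein pairs with BMAL1, the product of Arntl, and the pair binds E-box sequences and activates the Period (Per) and Cryptochrome (Cry) genes, whose proteins then repress the pair. The same pair activates Nr1d1 and Nr1d2, which encode the REV-ERB repressors of Arntl that act through ROR response elements, and Dbp and Tef, which encode activators that bind D-box sequences. In peripheral tissues, blood vessels included, transcripts of Dbp and of Arntl are known to peak at opposite times of day.

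The promoters of 5 members are shown as examples of these binding sequences, which were also found in that of Cry1. RefSeq promoter windows (build GRCm38.p6) were found for 9 of the 10 members, all but Per2, and numbered 14 because some members had more than 1. Capitals mark 2 D-boxes (TTATGTAA) in the Per3 window at chr4:151044616-151044915 on the minus strand, and a ROR response element in the Arntl window at chr7:113207261-113207560 on the plus strand. In the Per1 window (chr11:69098699-69098998, plus strand) and the Tef window (chr15:81811164-81811463, plus strand) they mark an E-box (CACGTG). In the Nr1d1 window (chr11:98775328-98775627, minus strand) they mark an E-box variant, CACGTT read on the other strand.
Per3: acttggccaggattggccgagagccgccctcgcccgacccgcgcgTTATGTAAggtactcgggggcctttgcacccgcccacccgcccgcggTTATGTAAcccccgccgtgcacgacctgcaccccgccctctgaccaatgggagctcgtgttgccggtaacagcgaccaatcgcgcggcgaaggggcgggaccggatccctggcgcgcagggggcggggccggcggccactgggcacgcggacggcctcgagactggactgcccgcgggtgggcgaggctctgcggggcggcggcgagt
Arntl: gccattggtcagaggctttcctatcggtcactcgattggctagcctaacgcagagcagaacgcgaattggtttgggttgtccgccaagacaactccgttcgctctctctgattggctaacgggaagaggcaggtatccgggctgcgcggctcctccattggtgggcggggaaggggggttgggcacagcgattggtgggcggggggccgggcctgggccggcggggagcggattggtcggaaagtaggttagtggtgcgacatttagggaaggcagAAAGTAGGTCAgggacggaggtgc
Per1: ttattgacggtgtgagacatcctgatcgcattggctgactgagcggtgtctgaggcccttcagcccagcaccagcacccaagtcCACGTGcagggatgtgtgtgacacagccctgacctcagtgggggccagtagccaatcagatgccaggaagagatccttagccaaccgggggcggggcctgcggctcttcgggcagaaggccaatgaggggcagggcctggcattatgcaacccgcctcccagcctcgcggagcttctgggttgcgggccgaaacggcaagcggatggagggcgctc
Tef: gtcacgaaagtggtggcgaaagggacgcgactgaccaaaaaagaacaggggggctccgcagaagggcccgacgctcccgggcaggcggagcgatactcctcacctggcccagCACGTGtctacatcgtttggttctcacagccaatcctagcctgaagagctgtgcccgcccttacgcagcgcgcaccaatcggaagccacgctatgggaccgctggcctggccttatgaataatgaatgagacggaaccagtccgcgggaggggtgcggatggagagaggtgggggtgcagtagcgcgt
Nr1d1: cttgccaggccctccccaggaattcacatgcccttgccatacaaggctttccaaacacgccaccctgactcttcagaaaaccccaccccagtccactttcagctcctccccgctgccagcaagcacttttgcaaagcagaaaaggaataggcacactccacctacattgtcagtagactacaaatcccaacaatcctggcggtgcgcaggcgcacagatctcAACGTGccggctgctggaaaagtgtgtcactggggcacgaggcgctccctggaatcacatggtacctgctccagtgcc
A D-box (TTATGTAA or TTACGTAA, either strand) lay in 1.06% of the 32851 promoter windows of the whole table, and a ROR response element lay in 0.384%. The E-box lay in 7.15% of all windows and in windows of 3 members, Per1, Tef and Cry1. These percentages count windows, while a member was counted once if any of its windows matched, so the 2 are not like for like. The E-box variant lay in 4.68% of all windows and in those of Cry1 and Nr1d1, and the cyclic AMP response element TGACGTCA lay in 1.79% and in none of the members'. The windows of Dbp, Clock and Nr1d2 held none of these exact sequences, nor did the other window of Per1 or that of Arntl. A match describes the letters and not a bound site.

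The matrix held 60871 barcodes, of which 50769 passed the limits on detected genes, mitochondrial counts and doublets. Kept cells per library numbered between 5659 and 13886, with a median depth between 4668.5 and 7733 UMIs, and 414 barcode sequences occurred in more than 1 library. Clusters were named after marker genes and not by the authors, and levels are given as CPM, the UMIs of a gene in a class divided by all UMIs of that class and library, times 1e6. The 4 large classes were smooth muscle-like (11946 cells, each of the 6 markers Myh11, Acta2, Cnn1, Tagln, Smtn and Lmod1 at 662 CPM or more), fibroblast-like (15938 cells), endothelial cell-like (8390 cells) and macrophage-like (3277 cells). Each of their marker lists was also found at a low level in the other large classes, and those levels are given where a clock gene result is touched. Library 5 gave 62.6% of the 912 T cell-like cells. Library 6 stood apart from the others for Dbp and Arntl in smooth muscle-like, fibroblast-like and endothelial cell-like cells.

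Dbp, which encodes a D-box activator and lies on chromosome 7 (45705088 to 45710203, plus strand), had the widest spread between libraries of the 10 genes in smooth muscle-like, fibroblast-like and macrophage-like cells. In smooth muscle-like cells Dbp stood at 194, 175, 108, 204, 144 and 46.5 CPM in libraries 1 to 6. Libraries 1 and 4 were highest and library 6 was lowest by a wide margin. The ratio of library 4 to library 6 was 4.38 (exact 95% interval from the counts 4.09 to 4.69). Such intervals cover counting error only and not differences between mice.

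Fibroblast-like cells repeated this order for Dbp, at 192, 145, 93.6, 193, 131 and 48.9 CPM. Endothelial cell-like cells stood at 128, 154, 72.9, 140.0, 113 and 47.1 CPM, with library 2 in first place. Of the 3 endothelial cell-like clusters, the one with Gpihbp1 in front had library 2 first, at 148 CPM against 110.2 CPM in library 4. Library 4 was first in the other 2 by small margins, at 180.5 against 178 CPM and 129.9 against 124.8 CPM in the next library. The share of each cluster in the class differed between libraries, and its part in the order was not tested. Macrophage-like cells held less Dbp, at 62.3, 57.3, 36.5, 65.1, 25.2 and 18.8 CPM. Library 6 was lowest in all 4 classes, and library 3 was below libraries 1, 2 and 4 in all 4. Between its extreme libraries Dbp differed by a factor of 3.95 (3.61 to 4.34) in fibroblast-like, 3.28 (2.86 to 3.76) in endothelial cell-like and 3.47 (2.45 to 5.04) in macrophage-like cells. Without library 6 the ratio was 1.88 in smooth muscle-like, 2.07 in fibroblast-like, 2.11 in endothelial cell-like and 2.59 in macrophage-like cells. Dbp shares 539 bases of exon with Sphk2 on the opposite strand, and the sources used here do not state whether strand was used in counting, so reads from the shared stretch cannot be told apart.

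Tef (chromosome 15, 81802421 to 81826863) encodes a D-box activator of the same family. In smooth muscle-like cells it stood at 106, 117, 75.6, 123, 113 and 52.3 CPM in libraries 1 to 6, and in fibroblast-like cells at 105, 97.6, 71.4, 119.6, 96.7 and 59.3 CPM. Endothelial cell-like cells had more, at 137, 185, 115, 158, 157 and 95.6 CPM, and macrophage-like cells had less, at 48.0, 46.4, 34.9, 57.1, 37.5 and 32.9 CPM. Library 6 was lowest and library 3 second lowest in each of the 4 classes. The highest library was 2.35 (2.18 to 2.53), 2.02 (1.85 to 2.20), 1.93 (1.75 to 2.14) and 1.74 (1.32 to 2.32) times the lowest in smooth muscle-like, fibroblast-like, endothelial cell-like and macrophage-like cells. Tef put the 15 pairs of libraries in the same order as Dbp in 13, 15, 14 and 14 cases in these classes.

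**Figure D1:**
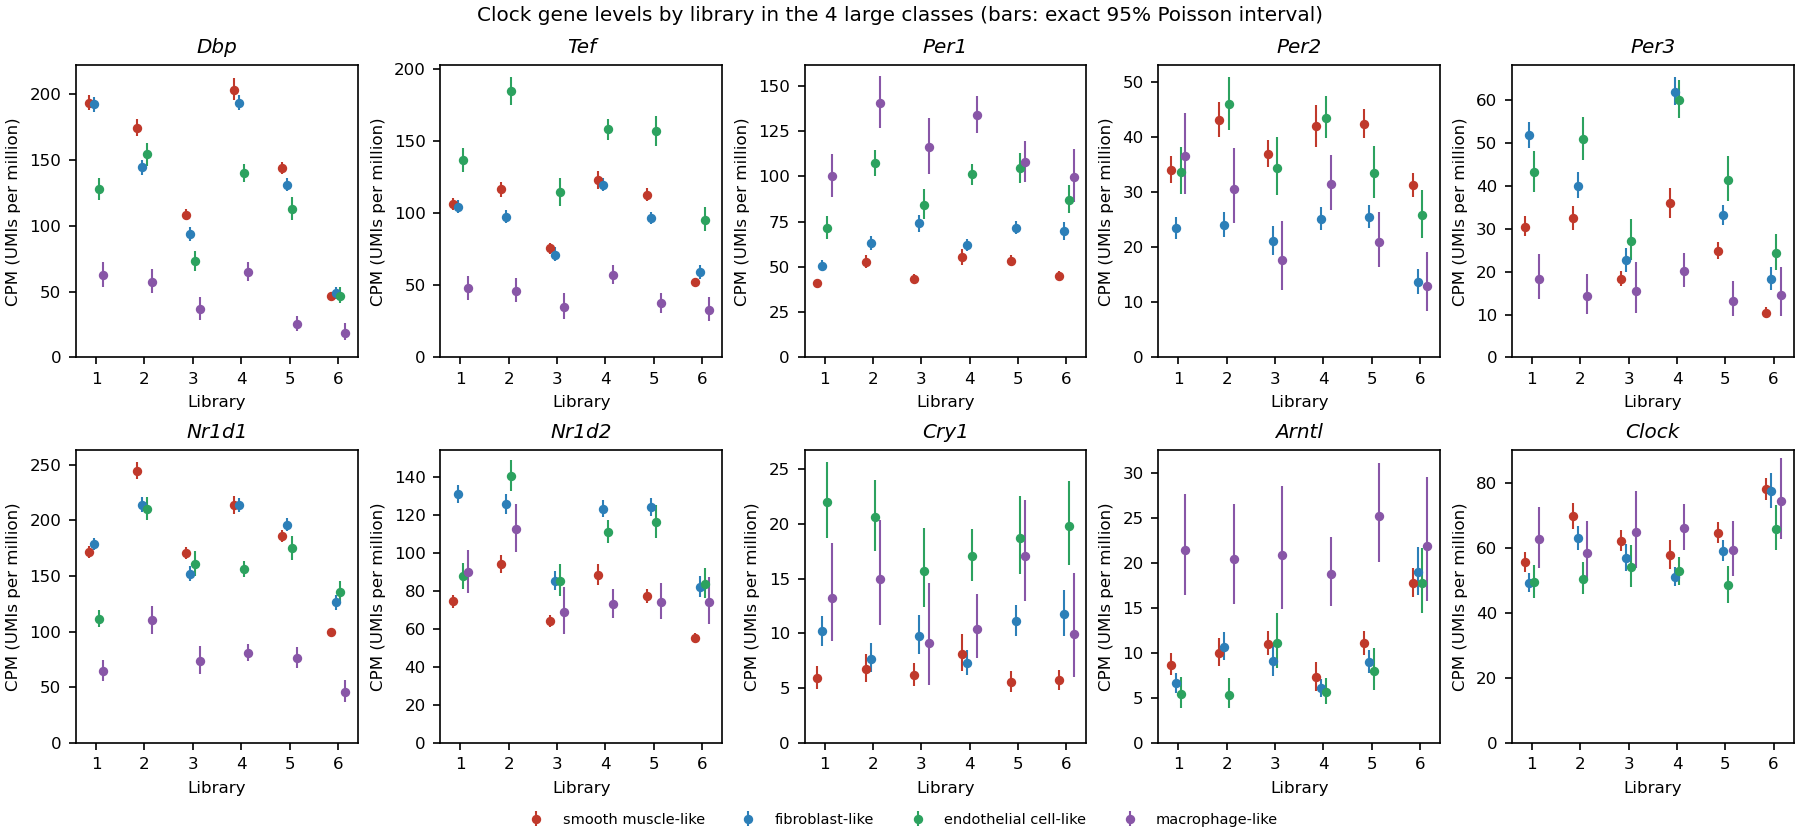
Level of each of the 10 clock genes in CPM (vertical axis, starting at 0) in libraries 1 to 6 (horizontal axis) for the 4 large classes in separate colours, with bars for the exact 95% Poisson interval. Dbp, Tef and Per3 were lowest in library 6 in smooth muscle-like, fibroblast-like and endothelial cell-like cells, where Arntl was highest in library 6.

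The Period genes encode the repressors of the loop and did not share 1 order of libraries. Per3 (chromosome 4, 151003652 to 151044665, minus strand) followed Dbp most closely, at 30.5, 32.4, 18.2, 35.9, 24.8 and 10.4 CPM in smooth muscle-like cells. In fibroblast-like cells Per3 stood at 51.8, 40.0, 22.6, 61.9, 33.1 and 18.2 CPM, and in endothelial cell-like cells at 43.1, 50.8, 27.2, 60.05, 41.5 and 24.4 CPM. Library 4 was highest and library 6 lowest in each, with ratios of 3.46 (2.97 to 4.04), 3.40 (2.92 to 3.97) and 2.46 (2.05 to 2.99). In macrophage-like cells the level was between 13.2 and 20.1 CPM and the intervals of the highest and lowest library overlapped.

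Per2 (chromosome 1, 91415982 to 91459324, minus strand) was lowest in library 6 in all 4 classes. The smooth muscle-like level was 34.1, 43.1, 37.0, 42.0, 42.5 and 31.3 CPM, a narrow range with a ratio of 1.38 (1.25 to 1.52). The macrophage-like level was 36.5, 30.7, 17.7, 31.5, 20.98 and 13.0 CPM, and library 1 was 2.80 (1.79 to 4.53) times library 6. Fibroblast-like and endothelial cell-like ratios were 1.87 (1.55 to 2.26) and 1.78 (1.46 to 2.18).

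Per1 (chromosome 11, 69095217 to 69109960), which also responds to hormones and other acute signals, had small ratios of highest to lowest library, from 1.36 (1.22 to 1.502) for smooth muscle-like to 1.5 (1.34 to 1.68) for endothelial cell-like cells. Its smooth muscle-like level was 40.9, 52.9, 43.6, 55.4, 53.4 and 45.2 CPM. Library 1 was lowest in smooth muscle-like, fibroblast-like and endothelial cell-like cells, so Per1 departed from Dbp in the library where Dbp was among the highest. In fibroblast-like cells Per1 and Dbp took the same order in only 3 of 15 library pairs, at 50.8 CPM for Per1 in library 1 against 74.0 CPM in library 3.

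Cry1 (chromosome 10, 85131700 to 85185064, minus strand), which encodes a repressor partner of the Period proteins, was sparse. Its levels lay between 5.55 and 8.13 CPM in smooth muscle-like, 7.28 and 11.7 CPM in fibroblast-like, 15.7 and 22.0 CPM in endothelial cell-like and 9.12 and 17.1 CPM in macrophage-like cells. The intervals of the highest and lowest library overlapped in 3 of these classes, all but fibroblast-like cells, where library 6 was 1.61 (1.27 to 2.05) times library 4.

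Nr1d1 (chromosome 11, 98767932 to 98775333, minus strand) and Nr1d2 (chromosome 14, 18204054 to 18239127, minus strand) encode the REV-ERB repressors. Nr1d1 in smooth muscle-like cells stood at 172, 245, 171, 214, 186 and 99.2 CPM in libraries 1 to 6, and library 2 was 2.46 (2.35 to 2.59) times library 6. In macrophage-like cells it stood at 64.1, 110.0, 73.5, 80.8, 75.8 and 45.9 CPM, a ratio of 2.40 (1.88 to 3.07). Library 2 was the highest for Nr1d1 in smooth muscle-like, endothelial cell-like and macrophage-like cells, and in fibroblast-like cells libraries 2 and 4 were level (214.04 and 213.92 CPM, with overlapping intervals). Library 1, high for Dbp, was the lowest for Nr1d1 in endothelial cell-like cells, at 111 CPM against 135 CPM in library 6.

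Nr1d2 had ratios from 1.59 (1.48 to 1.72) in fibroblast-like cells to 1.70 (1.59 to 1.83) in smooth muscle-like cells. Its smooth muscle-like level of 74.3, 93.8, 63.9, 88.2, 77.1 and 55.0 CPM put all 15 library pairs in the same order as Nr1d1. Nr1d1 shares 263 bases of exon with Thra on the opposite strand, with the same limit as for Dbp and Sphk2.

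Arntl (chromosome 7, 113207465 to 113314126), which encodes BMAL1, ran the other way. In smooth muscle-like cells it stood at 8.70, 9.98, 11.0, 7.26, 11.1 and 17.8 CPM in libraries 1 to 6, and in fibroblast-like cells at 6.61, 10.6, 9.04, 6.03, 8.97 and 19.0 CPM. Endothelial cell-like cells had 5.39, 5.31, 11.1, 5.62, 7.96 and 17.8 CPM. Library 6 was highest in these 3 classes, and its interval lay apart from that of the lowest library. The ratios of highest to lowest were 2.45 (1.94 to 3.13), 3.15 (2.52 to 3.94) and 3.36 (2.32 to 4.94). Macrophage-like cells had more Arntl, at 21.5, 20.5, 20.9, 18.8, 25.2 and 21.9 CPM, with overlapping intervals and a ratio of 1.34 (0.989 to 1.82).

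Clock (chromosome 5, 76209868 to 76304792, minus strand), whose product is the partner of BMAL1, was highest in library 6 in all 4 large classes, by a smaller factor. In smooth muscle-like cells its level was 55.6, 69.9, 62.2, 58.0, 64.7 and 78.1 CPM, a ratio of 1.40 (1.31 to 1.51), and in fibroblast-like cells the ratio was 1.58 (1.44 to 1.73). In macrophage-like cells the ratio was 1.28 (1.012 to 1.61) and the intervals of the highest and lowest library overlapped.

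Dbp and Arntl were set against each other because their peaks are known to lie far apart. They ordered the 15 library pairs oppositely in 14 pairs in smooth muscle-like, 13 in fibroblast-like, 14 in endothelial cell-like and 12 in macrophage-like cells. At least as many opposite pairs with Dbp were found for 1.63%, 4.09%, 0.840% and 7.44% of the 10472 genes measured in all 4 classes. At least 12 opposite pairs in each class were found for Arntl alone of the members and for 0.191% of these genes. This limit of 12 equals the lowest of the Arntl counts and was set after the data had been seen. That Arntl reached it was therefore fixed beforehand, and the share is given as a description only. At least 12 pairs in the order of Dbp in each class were found for Tef and Per3 and for 0.621%. Pairs in which both genes had intervals that lay apart numbered 7, 9, 8 and 0, and all of these were opposite. The pairs share libraries and are not separate observations. Many of those in the first 3 classes hold library 6, which stood apart there for both genes. For smooth muscle-like cells the number of Dbp UMIs per Arntl UMI was 22.3, 17.5, 9.83, 28.1, 13.0 and 2.62 in libraries 1 to 6. Fibroblast-like cells gave 29.1, 13.6, 10.3, 32.1, 14.6 and 2.58, and endothelial cell-like cells gave 23.7, 29.1, 6.58, 24.9, 14.2 and 2.64. In library 6 the 3 classes thus lay between 2.58 and 2.64, with intervals that overlapped (2.35 to 2.91 in smooth muscle-like cells). Macrophage-like cells gave 2.90, 2.80, 1.74, 3.47, 1.0 and 0.857. Library 6 had the lowest number in each of the 7 classes that held at least 20 cells in every library. Its interval lay below those of all other libraries in the smooth muscle-like, fibroblast-like and endothelial cell-like classes, and overlapped that of at least 1 other library in the remaining 4, with 3 Dbp UMIs behind its value in T cell-like cells.

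**Figure D2:**
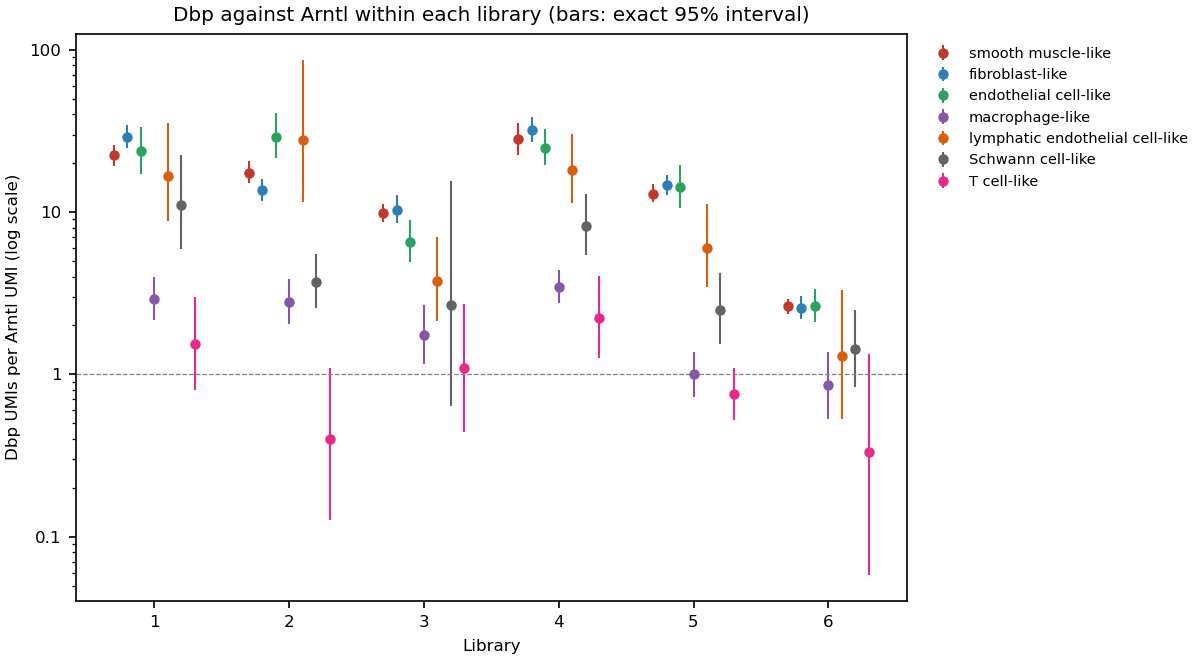
Dbp UMIs per Arntl UMI (vertical axis, log scale) in libraries 1 to 6 (horizontal axis) for the 7 classes with at least 20 cells in every library, with bars for the exact 95% interval. Library 6 has the lowest point in every class, between 2.58 and 2.64 in smooth muscle-like, fibroblast-like and endothelial cell-like cells.

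A gene was said to vary between libraries in a class if it had at least 60 UMIs there, its highest library reached 2 times its lowest, and their Poisson intervals did not overlap. This is a rule of size and not a test. Of the 10 members, 5 varied in smooth muscle-like cells (Per3, Dbp, Tef, Arntl and Nr1d1), against 15% of all genes measured. In fibroblast-like cells 4 varied (Per3, Dbp, Tef and Arntl), against 15.3%, and in endothelial cell-like cells 3 varied (Per3, Dbp and Arntl), against 13.0%. In macrophage-like cells 3 varied (Per2, Dbp and Nr1d1), against 17.2%. The median ratio of the members was 2.03, 1.78, 1.84 and 1.69 in these classes, beside 1.43, 1.48, 1.49 and 1.63 over all genes measured. Macrophage-like cells thus showed the smallest gap between the members and the rest.

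Much of the variation lay in library 6. It was the lowest library for 6, 6, 5 and 5 of the 10 members in smooth muscle-like, fibroblast-like, endothelial cell-like and macrophage-like cells, against 20.2%, 21.4%, 19.0% and 22.1% of all genes. Without library 6 no member varied in smooth muscle-like cells (background 11.2%), 2 varied in fibroblast-like cells (Per3 and Dbp, background 11.9%), 3 in endothelial cell-like cells (background 9.66%) and 2 in macrophage-like cells (background 13.7%). The highest smooth muscle-like ratio was then that of Per3, at 1.97.

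The order of the libraries was compared between classes by the share of the 15 library pairs that 2 classes placed alike, averaged over the 6 pairs of large classes. The share was 0.9 for Dbp, 0.878 for Tef, 0.856 for Nr1d1 and 0.822 for Per3. These 4 of the 10 members reached the limit of 0.8, as did 8.42% of the 10472 genes measured in all 4 classes. A share as high as that of Dbp was reached by 0.821% of the genes. Of the other members, Nr1d2 had 0.744, Arntl 0.711, Per2 0.689, Clock 0.678 and Per1 0.622, beside a median of 0.633 over all genes. Cry1, at 0.456, lay below that median, and between smooth muscle-like and fibroblast-like cells only 1 of its 15 pairs was in the same order. Dbp alone among the members both kept its order and varied in all 4 classes, which 0.544% of all genes did. Without library 6 the same 4 members reached the limit, against 9.75% of genes, with Dbp at 0.850.

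**Figure D3:**
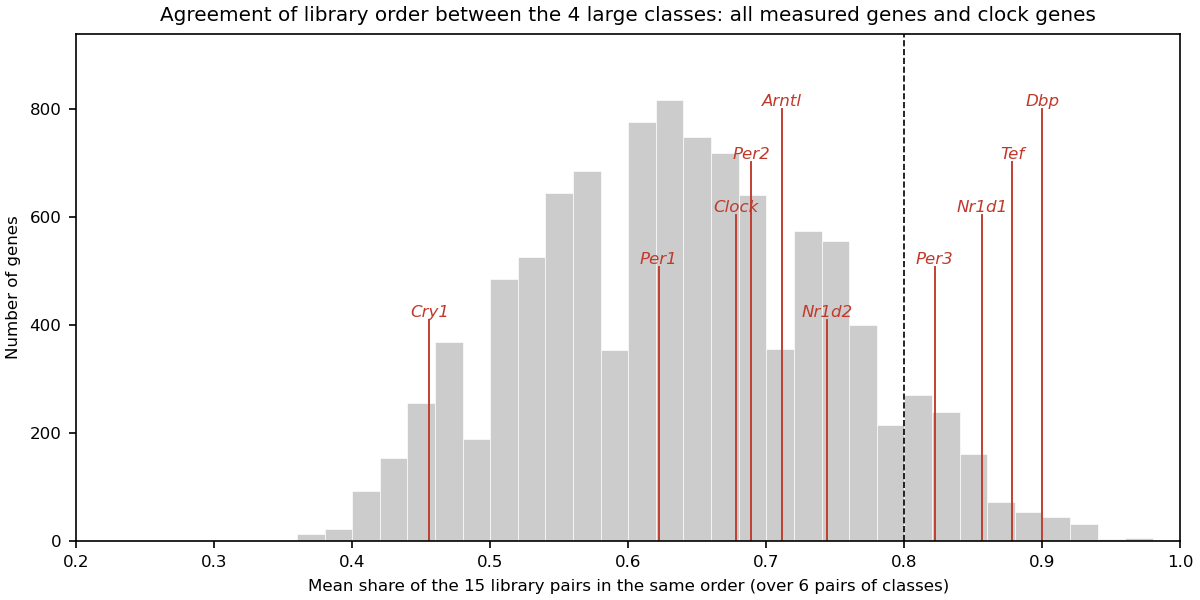
Number of genes (vertical axis) by the mean share of the 15 library pairs placed in the same order in 2 large classes (horizontal axis), for the 10472 genes measured in all 4 classes, with red lines for the 10 clock genes and a dashed line at the limit of 0.8. Dbp, Tef, Nr1d1 and Per3 lie to the right of the limit and Cry1 lies near the left end.

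RNA released by one cell type can be captured in the droplet of another. Markers of other classes were found in every large class. In macrophage-like cells the 6 smooth muscle markers summed to between 1286 and 3207 CPM over the libraries, against 43580 to 50960 CPM in smooth muscle-like cells, and the 6 fibroblast markers summed to between 356 and 1139 CPM. An upper bound on carried-over RNA was set from the marker list that was highest relative to the whole library. This bound came to 11.1% to 20.3% of the Dbp level in smooth muscle-like, 6.63% to 11.2% in fibroblast-like, 7.79% to 20.2% in endothelial cell-like and 23.8% to 67.9% in macrophage-like cells, depending on the library. With this bound subtracted, Dbp was the 1 member still at the limit of 0.8, at 0.856, against 3.51% of genes, while Nr1d1 had 0.789, Per3 0.756 and Tef 0.711. Its ratio between libraries was then 4.84, 3.85, 3.25 and 5.33 in the 4 classes, and in macrophage-like cells library 5 and not library 6 was then the lowest for Dbp and for Tef.

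The level of each member also differed between cell classes, and the 7 classes with at least 20 cells in every library were ranked by the median CPM of the 6 libraries. Arntl was highest in T cell-like cells, at 38.4 CPM (range over libraries 29.8 to 74.6), and these were first in all 6 libraries. Schwann cell-like cells came next, at 21.3 CPM (9.86 to 33.6), with a range that overlapped, and then macrophage-like cells, at 21.2 CPM (18.8 to 25.2), whose range did not reach that of T cell-like cells. Cry1 was also highest in T cell-like cells in all 6 libraries, at 34.9 CPM (24.95 to 50.96). Its range there lay above that of endothelial cell-like cells, at 19.3 CPM (15.7 to 22.0), but overlapped that of lymphatic endothelial cell-like cells (14.8 to 26.4).

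Dbp had its top median in smooth muscle-like cells, with 159 CPM (46.5 to 204), which were first in 5 libraries, followed by fibroblast-like cells, with 138 CPM (48.9 to 193), first in library 6. Summed over all cells the 2 classes changed places, at 135 and 147 CPM. Tef was highest in endothelial cell-like cells, at 147 CPM (95.6 to 185), and lowest in T cell-like cells, at 29.8 CPM (24.9 to 43.1), each in all 6 libraries. The ranges of 4 other classes overlapped that of endothelial cell-like cells. Clock reached 79.5 CPM (67.7 to 129) in Schwann cell-like cells, which were first in all 6 libraries, though the ranges of 5 other classes overlapped theirs. The top value, in library 3, came from 31 cells and 14 UMIs (interval 70.6 to 217). Other first places were shared. Nr1d1, at 188 CPM (126 to 214), and Nr1d2, at 123 CPM (82.1 to 131), had their top medians in fibroblast-like cells, which were first in 3 libraries for each gene. Per3 was first in Schwann cell-like, endothelial cell-like and fibroblast-like cells in 2 libraries each, with medians of 51.7, 42.3 and 36.6 CPM. Per2 was first in smooth muscle-like cells, at 39.5 CPM (31.3 to 43.1), in 3 libraries, and Per1 in T cell-like cells, at 136 CPM (106 to 204), in 4. The lowest median was that of T cell-like cells for 7 members, Per2, Per3, Dbp, Tef, Clock, Nr1d1 and Nr1d2. They were the lowest class in 6 libraries for Tef, in 5 for Per2, Per3 and Nr1d1, in 4 for Clock, in 3 for Dbp and in 2 for Nr1d2. No bound on carried-over RNA was computed for them.

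**Figure D4:**
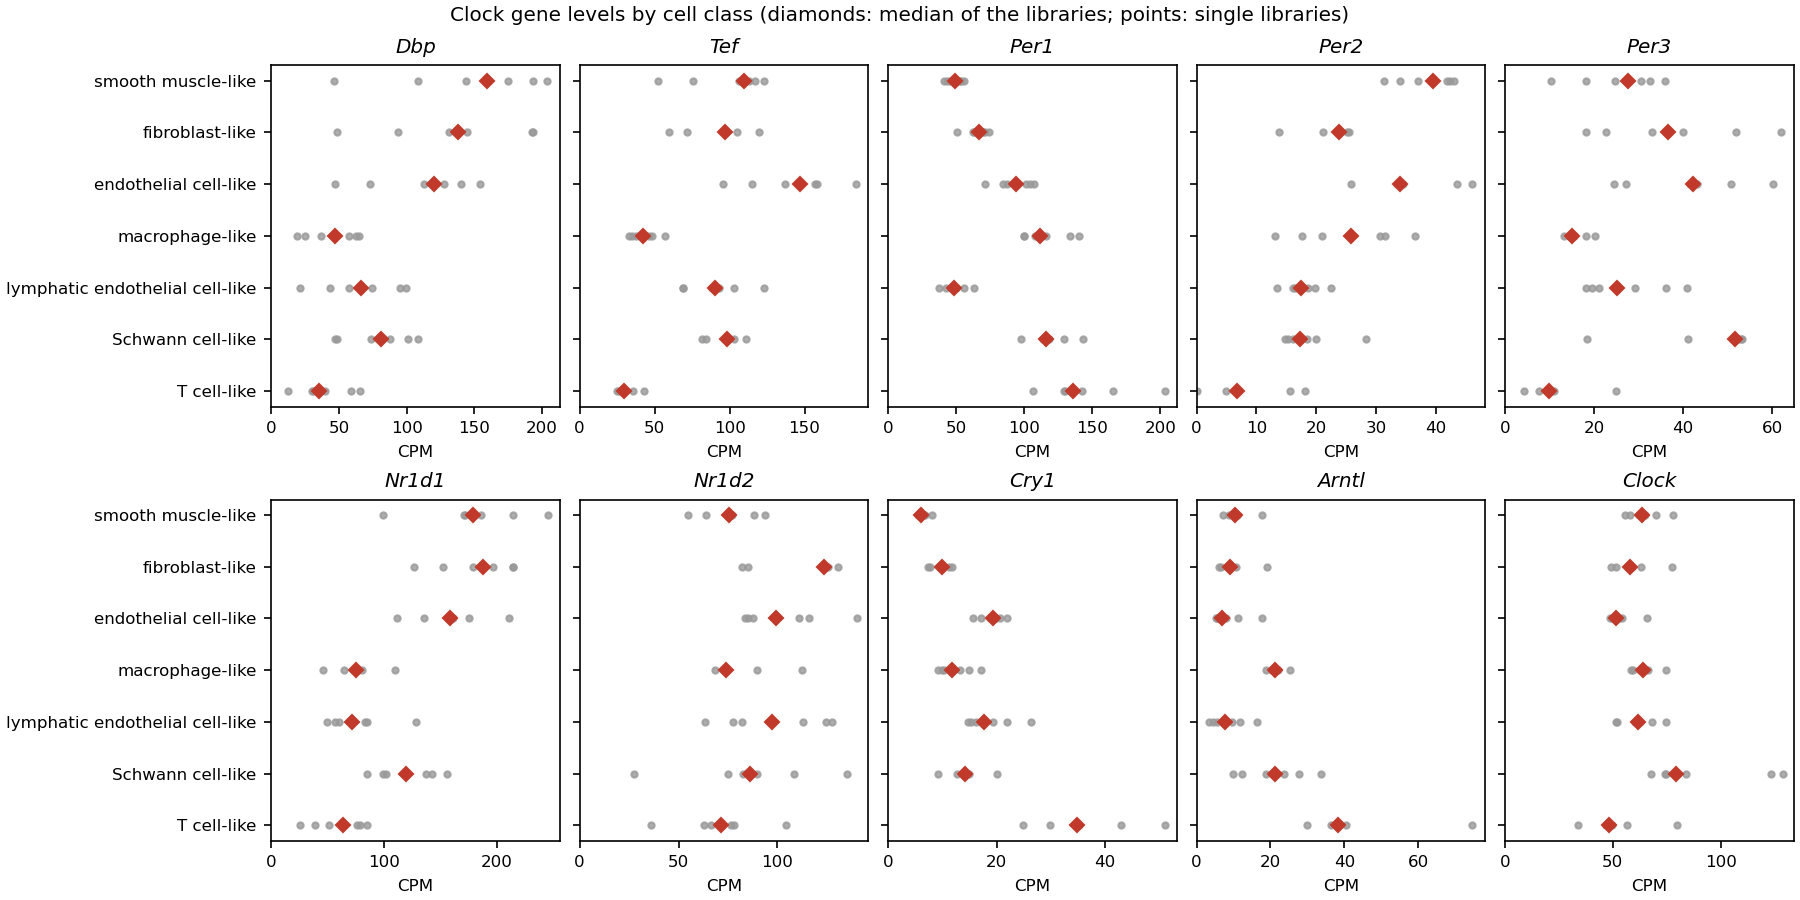
Level of each clock gene in CPM (horizontal axis, starting at 0) in 7 cell classes (vertical axis), with grey points for the single libraries and a red diamond for their median. Arntl and Cry1 have their highest medians in T cell-like cells, at 38.4 and 34.9 CPM, and 1 other class overlaps these points for each gene.

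Clusters within a class differed too. In the endothelial cell-like cluster led by Gpihbp1, Cd36 and Rbp7 (3266 cells), genes known from capillaries, Dbp stood at 126, 148, 36.3, 110.2, 75.3 and 20.8 CPM in libraries 1 to 6, a ratio of 7.08. In the cluster led by Ptprb, Cytl1 and Gkn3 (3073 cells), with genes known from arteries, it stood at 131.5, 178, 102, 180.5, 148 and 82.8 CPM, a ratio of 2.18. Arntl was higher in the first cluster, at 12.7 CPM against 4.25 CPM. The first cluster was thus lower in Dbp and higher in Arntl in each of libraries 1 to 6. An unnamed cluster led by Actc1, Des and Pln (1331 cells), which holds markers of more than 1 muscle type, had 193, 196, 119, 206, 139.7 and 91.3 CPM of Dbp. Its library 6 was not as low as in smooth muscle-like cells, with a ratio of 2.26 between the highest and lowest library.

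A further list of 18 clock genes was read beside the members. Of those measured, 6 of 16 varied in smooth muscle-like and 7 of 17 in fibroblast-like cells, against 15% and 15.3% of all genes. In endothelial cell-like cells 3 of 16 varied, against 13.0%, and in macrophage-like cells 6 of 14, against 17.2%. Of the 14 list genes measured in all 4 classes, 0 kept their order to the limit of 0.8, against 8.42% of all genes. Npas2, which encodes a paralogue of CLOCK, was highest in library 6, at 2.68, 4.64, 5.58, 2.80, 3.14 and 11.2 CPM in smooth muscle-like cells. Its fibroblast-like level was 3.60, 6.25, 5.73, 3.68, 5.95 and 16.9 CPM, so the highest library was 4.16 (3.15 to 5.57) and 4.70 (3.59 to 6.20) times the lowest in these classes. Ciart, which encodes a repressor of the CLOCK and BMAL1 pair, was lowest in library 6 in smooth muscle-like cells, at 14.1, 13.5, 8.35, 16.2, 13.1 and 4.73 CPM. Nfil3 encodes a repressor that competes for D-boxes. In smooth muscle-like cells it stood at 27.0, 19.1, 36.1, 24.8, 31.0 and 46.2 CPM, highest in library 6 and second highest in library 3. Library 3 was the highest for Nfil3 in fibroblast-like and endothelial cell-like cells, and library 2 in macrophage-like cells. Hlf encodes the third D-box activator of the family of Dbp and Tef. In smooth muscle-like cells it stood at 52.8, 58.5, 31.5, 53.9, 36.9 and 25.9 CPM, with libraries 6 and 3 lowest. In fibroblast-like cells library 3 and not library 6 was the lowest for Hlf, at 42.9 CPM. Usp2, of the same list, varied in fibroblast-like cells with library 6 highest. It stood there at 142.9 CPM, against 56.5 CPM in library 4 (ratio 2.53, 2.34 to 2.725).

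Genes were ranked by how closely they followed Dbp, as the Pearson correlation of log2(CPM + 1), centred within each large class, over 24 points of class and library. These points share libraries, and the 6176 genes with at least 300 UMIs in each class entered. Tef was the most like Dbp of all these genes (r = 0.94), followed, among others, by Tspan4, the mitophagy receptor gene Bnip3l, Fam192a, Zfyve21, Gm10076 and the sulfotransferase gene Sult1a1 (r from 0.92 to 0.86). Among the most opposite genes Rel, which encodes an NF-kappaB subunit, came first (r = -0.86), then Cdv3, Spty2d1, the heat shock gene Hspa1b and, at rank 5, Arntl (r = -0.84), followed by Ppp2r2a, Rgs5 and Bcam. Per2 ranked 34 (r = 0.81), Nr1d2 76 (r = 0.76) and Nr1d1 165 (r = 0.70) among the genes most like Dbp, and Clock ranked 38 among the most opposite (r = -0.76). For Per1 the correlation was 0.16. Per3 and Cry1 had under 300 UMIs in at least 1 class and were not ranked. A high r does not mean a wide spread, since Bnip3l had ratios of highest to lowest library of only 1.16 to 1.33.

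Genes of other short-term responses were read beside the members. By the rule above, 4, 2, 2 and 3 of 5 heat shock genes, 3, 3, 2 and 0 of 5 glucocorticoid-responsive genes and 1, 0, 0 and 4 of 8 immediate early genes varied in smooth muscle-like, fibroblast-like, endothelial cell-like and macrophage-like cells, where 15%, 15.3%, 13.0% and 17.2% of all genes did. The summed level of 5 heat shock genes was highest in library 6 in smooth muscle-like cells (5092 CPM against 3317 to 4574 CPM in the other libraries), endothelial cell-like cells and macrophage-like cells. The summed level of 5 glucocorticoid-responsive genes was lowest in library 6 in smooth muscle-like cells (858 CPM, against 986 to 1557 CPM) and in fibroblast-like and macrophage-like cells. It took the order of Dbp in 13, 12, 9 and 14 of the 15 library pairs in the 4 classes, and that of Per1 in 11, 6, 12 and 12. The summed level of 8 immediate early genes put library 6 in rank 1 in fibroblast-like cells and in rank 4 or 5 in the other classes. The part of these responses in the clock gene differences was not tested.

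Cells of both sexes, and so of more than 1 mouse, were found in some libraries. Libraries 1, 3 and 4 held 1868, 1158 and 3060 cells with UMIs of Xist, which marks an inactive X chromosome, and none of 4 Y-linked genes, beside 3900, 2545 and 3083 cells with Y-linked UMIs and no Xist. Libraries 2, 5 and 6 held at most 9 of the first kind. This split was chosen after the data had been seen. In library 1 the Xist cells had more Dbp than the Y-linked cells in smooth muscle-like cells, at 287 against 161 CPM (ratio 1.78, 1.66 to 1.91), and in fibroblast-like cells, at 257 against 149.7 CPM (1.72, 1.60 to 1.84). Arntl was lower in the same Xist cells, at 3.15 against 11.2 CPM in smooth muscle-like cells (0.282, 0.154 to 0.481) and 2.29 against 10.7 CPM in fibroblast-like cells (0.215, 0.114 to 0.376). In the endothelial cell-like cells of library 1 neither gene had an interval that excluded 1, with ratios of 1.07 (0.897 to 1.27) for Dbp and 0.735 (0.240 to 1.91) for Arntl.

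Library 4 gave another picture, with a Dbp ratio of 0.984 (0.898 to 1.08) in smooth muscle-like, 1.30 (1.21 to 1.39) in fibroblast-like cells and, below 1, 0.758 (0.672 to 0.853) in endothelial cell-like cells. In library 3 the Dbp ratio was 1.51 (1.37 to 1.66) for smooth muscle-like cells, but 0.702 (0.515 to 0.945) for those of the endothelial cell-like class. The direction of Dbp thus differed between classes within libraries 3 and 4. Arntl in library 4 was read in Y-linked cells beside all cells, which include them. In fibroblast-like cells the Y-linked cells had 8.23 CPM of Arntl (6.31 to 10.55) beside 6.03 CPM (5.06 to 7.14), with overlapping intervals. Their Dbp was lower, at 166 CPM (156.9 to 175.5) beside 193 CPM (187.8 to 199.3). In endothelial cell-like cells the Y-linked cells had 7.49 CPM of Arntl (5.16 to 10.5) beside 5.62 CPM (4.35 to 7.15), again with overlap. Their Dbp stood at 158 beside 140 CPM. These values thus give no direction for Arntl in library 4. In smooth muscle-like cells of library 3 Arntl stood at 11.3 beside 11.0 CPM. With Y-linked cells alone, Dbp kept the order of all cells in 14, 15 and 15 of the 15 library pairs in smooth muscle-like, fibroblast-like and endothelial cell-like cells, and the highest library was 4.49 (4.13 to 4.88), 3.61 (3.22 to 4.07) and 3.18 (2.71 to 3.74) times library 6. Mice, sex and the hour of collection cannot be told apart within these libraries.

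**Figure D5:**
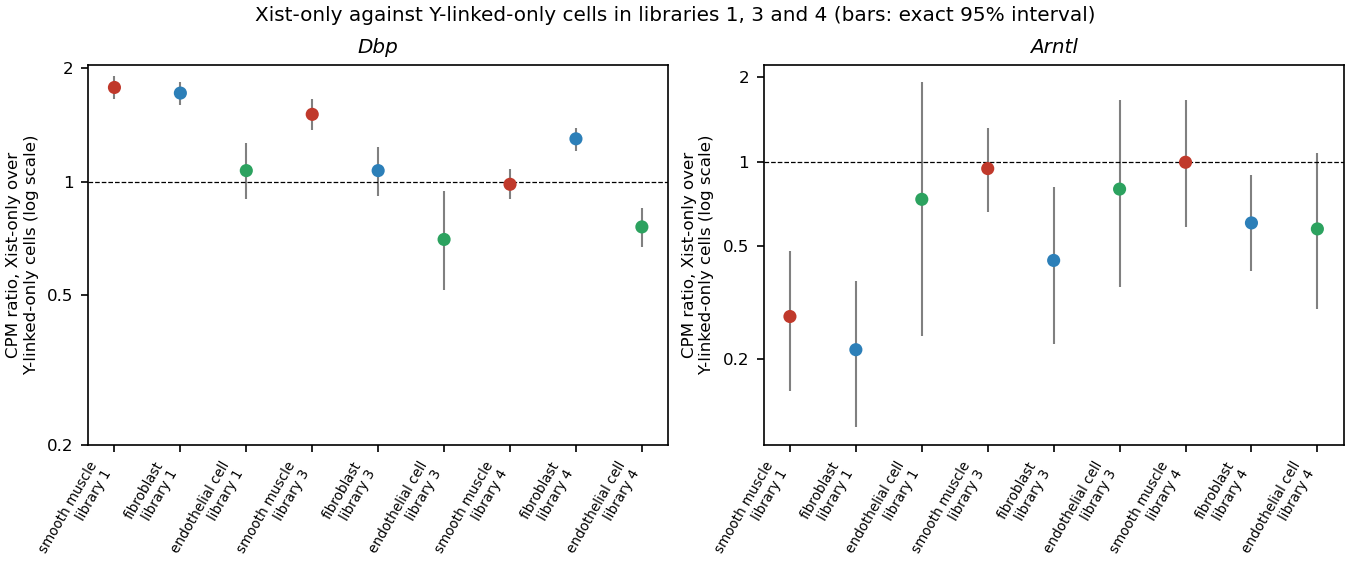
Ratio of CPM in cells with Xist UMIs alone to cells with Y-linked UMIs alone (vertical axis, log scale, dashed line at 1) for Dbp (left) and Arntl (right) in 3 large classes of libraries 1, 3 and 4 (horizontal axis), with bars for the exact 95% interval. In smooth muscle-like and fibroblast-like cells of library 1 the Dbp points lie above 1 and the Arntl points below 1.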

How the data were processed

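Droplet-based RNA sequencing (10x Genomics) was done on cells of 6 mouse aortic samples. The authors deposited a single matrix of raw UMI counts with its gene and barcode lists; per the file headers it was written by cellranger 6.1.2, while the submitters' processing notes list bcl2fastq 5.01, the build GRCm38, Seurat 3.1.1 and an older Cell Ranger, 3.1.0. The sources used here do not give whether depth was equalised between libraries or strand was used in counting.

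Cells needed 500 or more detected genes and no more than 20% mitochondrial counts, and doublets found in each library with Scrublet (scanpy 1.11.5; 3.02% to 11.3% of barcodes) were removed. Cells were clustered on 30 components and 20 neighbours with Leiden at resolution 0.5 (leidenalg 0.10.2) after clock, immediate early, heat shock, glucocorticoid-responsive, mitochondrial and ribosomal protein genes had been left out of the 2000 variable genes; no batch integration was applied. The 21 clusters were named by rule from 20 marker lists, and 4 clusters with 10.1% of the cells stayed unnamed. UMIs were added up by class and library and given as CPM with exact 95% Poisson intervals. The rules of size were tested on simulated data. edgeR 4.0.16 (scaling factors only), pandas 2.3.3, scipy 1.17.1 and numpy 2.4.6 under Python 3.11.15 were used, with scikit-learn 1.9.0. Coordinates come from GENCODE M21.

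Named genes are the 10 members, those of the fixed lists of 18 further clock genes and of response genes, and the 8 genes most like and most opposite to Dbp, of which 1 is not reported here. The members and the lists were chosen with earlier results of these data known. Alternatives changed the cell limits, doublets, clustering, scaling, carried-over RNA, libraries, minimum counts and thresholds. The order of Dbp against Arntl under these alternatives, the count of genes opposite to Dbp in at least 12 of 15 library pairs, and the split by Xist and Y-linked UMIs were added after the data had been seen.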

Additional observations from a re-analysis of the deposited data

How the results depend on the processing

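Counts of members were recomputed under each alternative. With carried-over RNA subtracted, 1 member (Dbp) and not 4 kept its order of libraries across the classes, and 1 did so with a limit of 0.9 on the share of pairs, as did 0.821% of all genes. At a ratio of at least 1.5, 9 members varied in fibroblast-like, 8 in endothelial cell-like and 5 in macrophage-like cells, against 32.9%, 29.9% and 32.9% of all genes, and at a ratio of at least 3, 2 varied in smooth muscle-like and 1 in macrophage-like cells, against 7.04% and 7.56%. Without library 6, 2 members varied in fibroblast-like and 0 in smooth muscle-like cells. Leaving out each library in turn gave 3 to 5 members in the same order across classes (9.75% to 12.5% of all genes), and 0 to 5 varying members in smooth muscle-like (11.2% to 13.0%), 2 to 4 in fibroblast-like (11.6% to 13.7%), 3 in each case in endothelial cell-like (9.1% to 11.3%) and 2 to 3 in macrophage-like cells (11.9% to 15.4%). Dbp and Arntl were opposite in 93.3%, 86.7%, 93.3% and 80.0% of library pairs in smooth muscle-like, fibroblast-like, endothelial cell-like and macrophage-like cells. No alternative changed these shares by a factor of more than 1.5. That limit is wide, and shares this high could pass it only downward. Of the 40 ratios of highest to lowest library, 20 moved beyond their interval without library 6 and 6 without library 2. With carried-over RNA subtracted 4 moved, without library 1 3 did and without library 4 2 did, and none moved under the other alternatives. With a library left out, a ratio could move only where that library was its highest or its lowest. Elsewhere it was unchanged by construction. Causes other than fewer libraries were not tested. No paired analysis was possible because no library could be matched to a numbered sample. Depth limited Cry1 and Per3 most in macrophage-like cells, with 224 and 294 UMIs.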

Other observations

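B cell-like and epithelial cell-like cells reached 20 cells in only 2 libraries and were not compared across libraries. In B cell-like cells (500 cells) Dbp stood at 30.9 CPM and Arntl at 15.9 CPM over all libraries. The pooled levels in epithelial cell-like cells (332 cells) were 63.7 and 25.9 CPM. Library 5 gave 86.2% of the first class and 84.0% of the second. Epithelial cell-like Dbp stood at 286 CPM in library 4 (30 cells) and 38.8 CPM in library 5. Arntl stood there at 0 and 29.0 CPM. The pooled Dbp level of the second class thus matched neither library. In an unnamed cluster led by Retnla, S100a9 and Cd52 (1191 cells), Dbp was low in every library, between 2.46 and 30.7 CPM. Arntl lay between 6.89 and 19.7 CPM there, with its highest value in library 6. That library gave only 52 of these cells, Arntl had 94 UMIs over all libraries, and the values are given without intervals.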
